A study of Homo sapiens with 4 samples.

Results

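Laminins and nidogens are the glycoproteins around which a basement membrane, the thin matrix sheet beneath endothelium and epithelium, is assembled. The expression of 10 of their genes was examined in CD31+ cells made from the H1 line of human embryonic stem cells. The members were the alpha chain genes LAMA1, LAMA2, LAMA3, LAMA4 and LAMA5, the beta chain genes LAMB1 and LAMB2, the gamma chain gene LAMC1, and the nidogen genes NID1 and NID2. They were taken by symbol, each had 1 row in the table, and they make up 10 of the 58229 genes in it. RNA was sequenced from 2 Control libraries (H1 without HAND1 overexpression) and 2 HAND1_OE libraries (H1 with overexpression of the transcription factor HAND1). Both groups went through the same stepwise hematopoietic differentiation, in which activinA and BMP4 came before VEGF and bFGF, and were collected at day 8. In the study's scheme HAND1 is switched on with doxycycline late in this culture; whether the Control cells also received doxycycline, and how many H1 clones were used, is not given in the sources used here.

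A laminin is a trimer of an alpha, a beta and a gamma chain, which is secreted whole and polymerizes on the cell surface through the ends of its short arms. Nidogens bind the gamma chain and the type IV collagen network and so tie these layers together. The alpha chain sets which receptor is engaged, mainly integrins and dystroglycan. In blood vessels the usual alpha chains are those of LAMA4 and LAMA5, whereas LAMA1 belongs to the earliest embryonic basement membranes, LAMA2 to muscle and nerve, and LAMA3 to epithelia such as skin.

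The levels are FPKM (fragments per kilobase of transcript, scaled to the mapped fragments of the library), which allows levels of different genes to be set side by side. FPKM summed to 536284 to 606609 in a library. The step that a fragment adds to low values put the depths of the other libraries at 0.980 to 1.18 times that of Control replicate 1. These estimates rest on few genes, 87 of 2054 for Control replicate 2, 68 of 2084 for HAND1_OE replicate 1 and 125 of 1956 for HAND1_OE replicate 2. HAND1 (chromosome 5, 154474972 to 154478264, GRCh38) had 12.1 and 14.3 FPKM in Control, against 520.5 and 517 FPKM in HAND1_OE (log2 fold change 5.20, limma adjusted p = 0.00145), in the direction that the labels give. PECAM1, which encodes CD31, had 95.5 and 141 FPKM in Control, against 91.97 and 160.2 FPKM in HAND1_OE. All 10 endothelial markers were above 1 FPKM in at least 2 libraries and summed to 1287 to 1479 FPKM. Of the 10, 0 were called in limma, and 2 had an unadjusted p under 0.05, 1 in each direction. Of all 14622 genes tested, 608 were called and 2551 had an unadjusted p under 0.05. Nothing in the labels says that the libraries of a group came from separate cultures, so p-values measure only the spread between these libraries.

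The stretches before the gene start are shown for LAMA4, the member that changed, and for LAMA5, the alpha chain with the highest level, since they differ in base composition and in E-boxes, the letters CANNTG that HAND1 and its partners bind. They are from RefSeq (GRCh38.p14), 5′ to 3′ on the strand of the gene, with any E-box in capitals. The LAMA4 stretch is chr6:112254723-112254785 on the minus strand, bases 218 to 156 before the RefSeq start. No exon of GENCODE release 29 lies there, but the LAMA4 gene of that release spans 112108760 to 112254939, so the stretch is inside the gene. The LAMA5 stretch is chr20:62367313-62367562 on the minus strand, the 250 bases before the start.
LAMA4: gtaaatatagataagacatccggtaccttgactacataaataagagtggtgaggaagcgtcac
LAMA5: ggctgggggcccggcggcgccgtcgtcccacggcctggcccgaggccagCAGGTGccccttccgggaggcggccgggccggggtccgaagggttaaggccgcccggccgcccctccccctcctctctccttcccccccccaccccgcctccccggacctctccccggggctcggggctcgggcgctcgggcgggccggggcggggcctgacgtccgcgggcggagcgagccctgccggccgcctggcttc

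Over the whole window of 250 bases before the start, G and C made up 48.4% of the LAMA4 bases and 82.8% of the LAMA5 bases, against a median of 58% over the 27305 genes in the promoter table. The LAMA4 window held 0 E-boxes and the LAMA5 window held 1. Windows of this length were found by symbol for 9 of the 10 members, all but LAMA1. They are counted from RefSeq starts. The windows of LAMA3 and LAMA4 lie wholly inside the gene spans given below, and those of LAMB1, LAMB2, NID1 and NID2 in part. CANNTG (read the same on both strands) was in 3 of these 9 windows, those of LAMA3, LAMA5 and NID2, and in 62.2% of all windows. CATCTG or its complement CAGATG, an E-box form found in motifs of HAND factors, was in 1 of the 9 windows, that of NID2, and in 12.2% of all windows. These are matches of letters within a short window and say nothing of binding.

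The order of levels was much the same in both groups, with LAMB2 and LAMA5 at the top. LAMB2 (chromosome 3, 49121114 to 49133118) encodes the beta chain found in vessels and at synapses. It had 236 and 179.7 FPKM in Control, against 328 and 213 FPKM in HAND1_OE. LAMA5 (chromosome 20, 62307955 to 62367312) had 216 and 151 FPKM in Control, against 309.8 and 191 FPKM in HAND1_OE. Averaged over the 4 libraries, LAMB2 lay above 97.98% and LAMA5 above 97.8% of the 14622 genes tested. The ranges of LAMB2 and LAMA5 overlapped in both groups, and in both groups all libraries of LAMA5 lay above those of the next gene, LAMB1.

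LAMB1, NID1 and LAMC1 formed the middle of the order. LAMB1 (chromosome 7, 107923799 to 108003255), the more widely made beta chain, had 97.5 and 77.2 FPKM in Control, against 95.2 and 119 FPKM in HAND1_OE. NID1 (chromosome 1, 235975830 to 236065162) had 47.9 and 101 FPKM in Control, against 95.1 and 117 FPKM in HAND1_OE. LAMC1 (chromosome 1, 183023460 to 183145592), the gamma chain that most laminins share, had 45.0 and 61.5 FPKM in Control, against 63.7 and 73.2 FPKM in HAND1_OE. In Control each of these overlapped its neighbour in range, and in HAND1_OE NID1 lay above LAMC1 in all libraries.

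Below them came NID2 and the minor alpha chains. NID2 (chromosome 14, 52004803 to 52069228), the second nidogen, had 16.9 and 32.2 FPKM in Control, against 15.1 and 29.9 FPKM in HAND1_OE. LAMA1 (chromosome 18, 6941744 to 7117814) had 5.70 and 7.58 FPKM in Control, against 4.40 and 11.2 FPKM in HAND1_OE. LAMA4 (chromosome 6, 112108760 to 112254939) had 6.59 and 5.10 FPKM in Control, against 16.8 and 13.9 FPKM in HAND1_OE. LAMA4 and LAMA1 overlapped in Control, whereas in HAND1_OE all libraries of LAMA4 lay above those of LAMA1 and overlapped the range of NID2.

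LAMA2 and LAMA3 stayed under 1 FPKM in every library and were therefore not tested. LAMA2 (chromosome 6, 128883141 to 129516569) had 0.428 and 0.257 FPKM in Control, against 0.401 and 0.757 FPKM in HAND1_OE. LAMA3 (chromosome 18, 23689443 to 23955066) was at 0.0587 and 0.0145 FPKM in Control and was listed at 0 and 0.0282 FPKM in HAND1_OE. The groups overlapped for both genes. The remaining 8 members passed the filter of 1 FPKM in at least 2 libraries, and all of them were above 1 FPKM in every library of both groups.

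**Figure D1:**
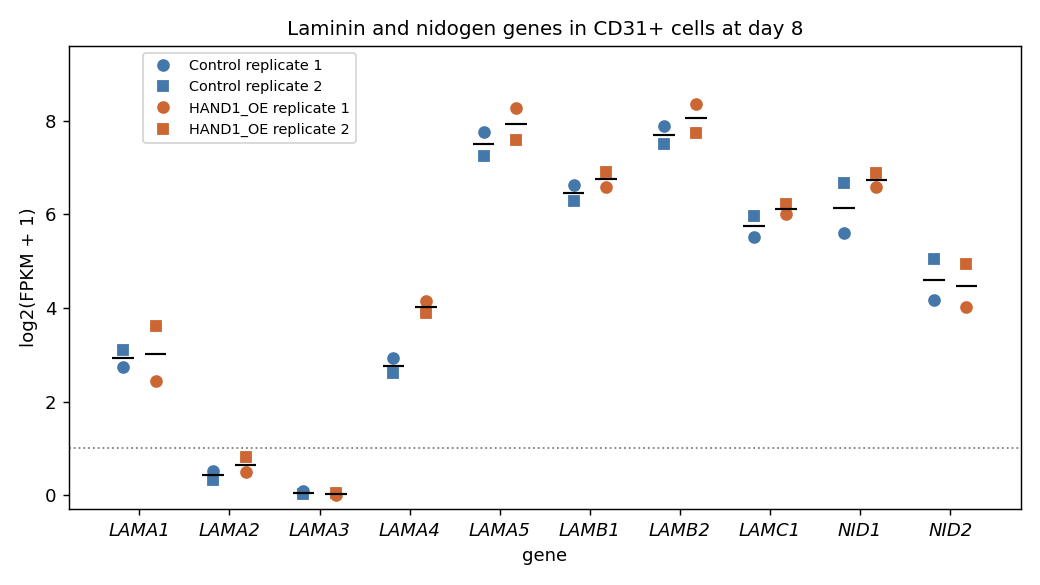
Levels of the 10 members, as log2(FPKM + 1), in each of the 4 libraries, with the black lines at the group means of the plotted values and the dotted line at 1 FPKM. LAMA4 is the member whose HAND1_OE points (16.8 and 13.9 FPKM) sit farthest above its Control points (6.59 and 5.10 FPKM), and LAMA2 and LAMA3 lie under the dotted line in all libraries.

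HAND1_OE was then compared with Control for the members on the scale log2(FPKM + 1), with limma fitted over all 14622 genes tested. LAMA4 was higher in HAND1_OE, and the other 7 tested members did not pass the threshold of 0.05 on the adjusted p. The mean level of LAMA4 was 5.85 ± 1.05 FPKM in Control and 15.3 ± 2.06 FPKM in HAND1_OE (SD, n = 2). Its log2 fold change was 1.26, with a standard error of 0.19 and a 95% interval of 0.78 to 1.74 (limma adjusted p = 0.0315). In such bulk samples a change in the make-up of the cells and a change in RNA per cell cannot be told apart. Thus 1 of 8 members tested was called higher and 0 lower in limma, and the same 1 and 0 had an unadjusted p under 0.05. Over all genes tested 4.16% were called, 2.04% higher and 2.11% lower. Of these 14622 genes, 2551 had an unadjusted p under 0.05 in limma. The HAND1_OE libraries exceeded both of the Control libraries for 2 of the 8, LAMA4 and LAMC1, and for 16.2% of all genes tested.

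The call of LAMA4 was close to the threshold. Its log2 fold change was 1.42 without Control replicate 1 (limma adjusted p = 0.0593), 1.10 without Control replicate 2 (0.115) and 1.13 without HAND1_OE replicate 1 (0.0644), so leaving out any of these libraries ended the call, while without HAND1_OE replicate 2 it was kept (1.39, adjusted p = 0.0281). Over the 13 alternatives tried, the log2 fold change stayed between 1.10 and 1.42 and the adjusted p between 0.00829 and 0.184. With every gene above 0 in any library tested, 0 of 29860 genes were called in limma, LAMA4 included (adjusted p = 0.184), and 3810 had an unadjusted p under 0.05.

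For the other members the differences did not exceed the spread between libraries in this test. The 95% interval of the log2 fold change was -0.12 to 0.86 for LAMC1 (estimate 0.37, adjusted p = 0.431), the member next to LAMA4 in p. It was -0.19 to 0.77 for LAMB1 (estimate 0.29, adjusted p = 0.539), -0.29 to 1.01 for LAMB2 (0.36, adjusted p = 0.580) and -0.30 to 1.16 for LAMA5 (0.43, adjusted p = 0.552). The estimate of LAMA4, 1.26, lay above the upper bound of each of these 4 intervals. Its own interval, 0.78 to 1.74, overlapped those of LAMC1, LAMB2 and LAMA5, and differences between members were not tested.

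NID1, NID2 and LAMA1 had wider intervals. NID1 had an estimate of 0.59 with an interval of -0.30 to 1.48 (adjusted p = 0.495), and leaving out Control replicate 1 brought the estimate to 0.057, leaving out Control replicate 2 to 1.12. NID2 had an estimate of -0.13 (-1.15 to 0.90, adjusted p = 0.928) and LAMA1 of 0.099 (-0.90 to 1.09, adjusted p = 0.944). The sign of NID2 turned without Control replicate 2 (0.32) or HAND1_OE replicate 1 (0.34), and that of LAMA1 without Control replicate 1 (-0.079) or HAND1_OE replicate 2 (-0.49). The median estimate of the 8 members was 0.36, beside a median of -0.078 over all genes tested. Of the 8 intervals, 7 included 0.

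**Figure D2:**
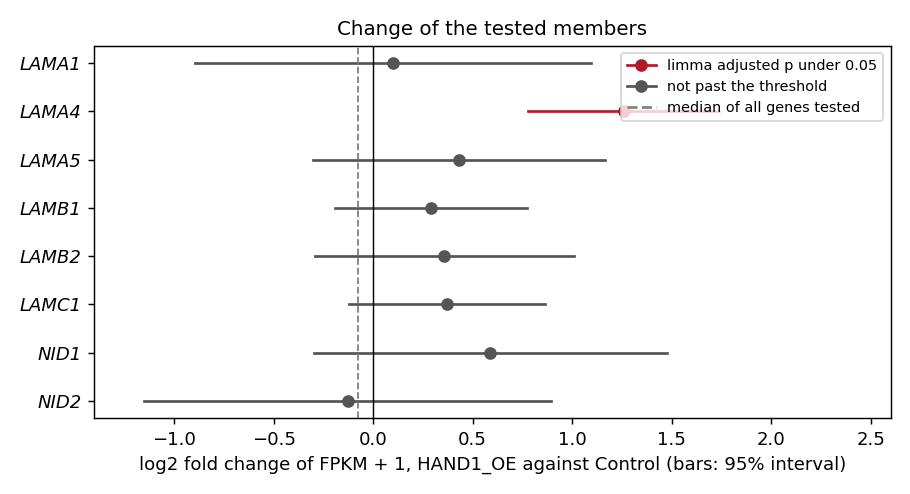
Log2 fold changes of FPKM + 1 between HAND1_OE and Control for the 8 tested members, with 95% intervals from limma as bars. The interval of LAMA4 (0.78 to 1.74) lies wholly above 0, and the other 7 intervals include 0, as well as the median of all genes tested at -0.078 (dashed line).

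The balance between chains was examined within each library, where a scaling of the whole library has no effect. LAMA5 made up most of the summed alpha chain FPKM, with 94.4% and 92.1% in Control and 93.5% and 88.1% in HAND1_OE. LAMA4 made up 2.88% and 3.12% in Control and 5.07% and 6.40% in HAND1_OE. The groups did not overlap, and HAND1_OE was higher by 2.74 percentage points on average (exact permutation test, two-sided, p = 0.333, the smallest that 2 libraries against 2 allow). LAMA1 made up 2.50% and 4.63% in Control and 1.33% and 5.17% in HAND1_OE, so its share was spread as widely within a group as between them.

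The ratio of LAMA4 to LAMA5, the usual vascular alpha chains, showed the same order. It is nearly the same quantity as the LAMA4 share, since LAMA5 made up most of the sum. There were 32.7 and 29.5 FPKM of LAMA5 for each FPKM of LAMA4 in the Control libraries and 18.4 and 13.8 in the HAND1_OE libraries. On the log2 scale the ratio of LAMA4 to LAMA5 was -4.96 ± 0.11 in Control and -3.99 ± 0.30 in HAND1_OE (SD, n = 2), a difference of 0.97 (exact permutation p = 0.333). LAMA5 remained the main alpha chain in every library.

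The ratio of the beta chains was close between the Control libraries and differed between the HAND1_OE libraries. LAMB2 exceeded LAMB1 by factors of 2.42 and 2.33 in Control and of 3.44 and 1.79 in HAND1_OE. The log2 ratio of LAMB1 to LAMB2 was -1.25 ± 0.040 in Control and -1.31 ± 0.66 in HAND1_OE (SD, n = 2, exact permutation p = 1), so the HAND1_OE libraries lay on either side of the Control libraries. Among the nidogens, NID1 exceeded NID2 by factors of 2.83 and 3.15 in Control and of 6.29 and 3.91 in HAND1_OE. The log2 ratio of NID1 to NID2 was 1.58 ± 0.11 in Control and 2.31 ± 0.49 in HAND1_OE, a difference of 0.73 without overlap of the groups (exact permutation p = 0.333).

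Chains of the 3 classes were not at equal levels, although a trimer takes 1 of each. The beta chains summed to 7.41 and 4.18 times LAMC1 in Control and to 6.63 and 4.54 times LAMC1 in HAND1_OE, and the alpha chains to 5.07 and 2.66 times in Control and 5.20 and 2.96 times in HAND1_OE. Neither ratio separated the groups (exact permutation p = 1 for beta and 0.667 for alpha). The transcripts of LAMA5 and LAMB2 are rich in G and C, with 66.4% and 60.3%, whereas the other 8 members lie between 46.5% and 52.0%; the part of base composition in these levels was not tested. LAMC3, a further gamma chain gene outside the members, had 22.5 and 17.4 FPKM in Control, against 47.1 and 31.3 FPKM in HAND1_OE, below LAMC1 in every library.

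**Figure D3:**
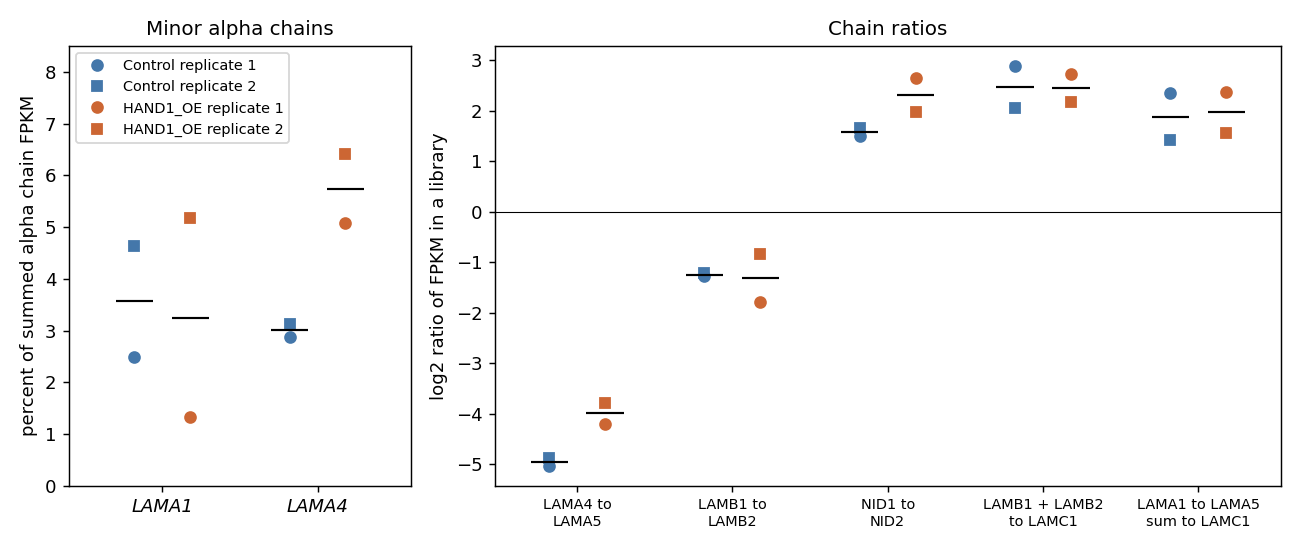
Left, share of LAMA1 and LAMA4 in the summed FPKM of LAMA1 to LAMA5 in each library, in percent; right, log2 ratios of FPKM between chains in each library, with black lines at group means. The HAND1_OE points lie above the Control points for the share of LAMA4 (5.07% and 6.40% against 2.88% and 3.12%), for LAMA4 to LAMA5 and for NID1 to NID2, and the groups overlap in the other ratios and in the share of LAMA1.

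The members differed in which libraries were high. LAMA5 and LAMB2 were highest in HAND1_OE replicate 1 and lowest in Control replicate 2. LAMA4 was highest in HAND1_OE replicate 1 too, but lay in both HAND1_OE libraries above both Control libraries. LAMA1, NID1, LAMB1 and LAMC1 were highest in HAND1_OE replicate 2, and NID2 was highest in Control replicate 2 and lowest in HAND1_OE replicate 1. LAMA1 had the same order of libraries as the summed markers of visceral and parietal endoderm, embryonic tissues known for making laminin, but the markers did not all share that order. Of the 10, 6 were highest in HAND1_OE replicate 2, as LAMA1 was, while SOX17 and DAB2 were highest in HAND1_OE replicate 1 and GATA6 and SOX7 in Control replicate 2. AFP, a fetal serum protein of endoderm, had 53.7 and 100.4 FPKM in Control, against 61.5 and 230.5 FPKM in HAND1_OE. APOB, a lipoprotein of the same tissue, had 1.47 and 4.27 FPKM in Control, against 1.43 and 9.02 FPKM in HAND1_OE. The 10 markers of visceral and parietal endoderm summed to 328 and 497 FPKM in Control and to 313 and 766 FPKM in HAND1_OE. Over all 14622 genes tested, 2551 had an unadjusted p under 0.05 in limma. Of the 10 markers 0 were called in limma and 1 was lower at that unadjusted p. These markers were named after their values were seen. None of the 10 was at 0 in any library. The list is not confined to endoderm, since SOX7 also served the study as its marker for the hemogenic endothelial stage. The cells are labelled CD31+, and the share of endoderm cells in them was not measured here. The part of endoderm in the spread of LAMA1, NID1 and NID2 was not tested.

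**Figure D4:**
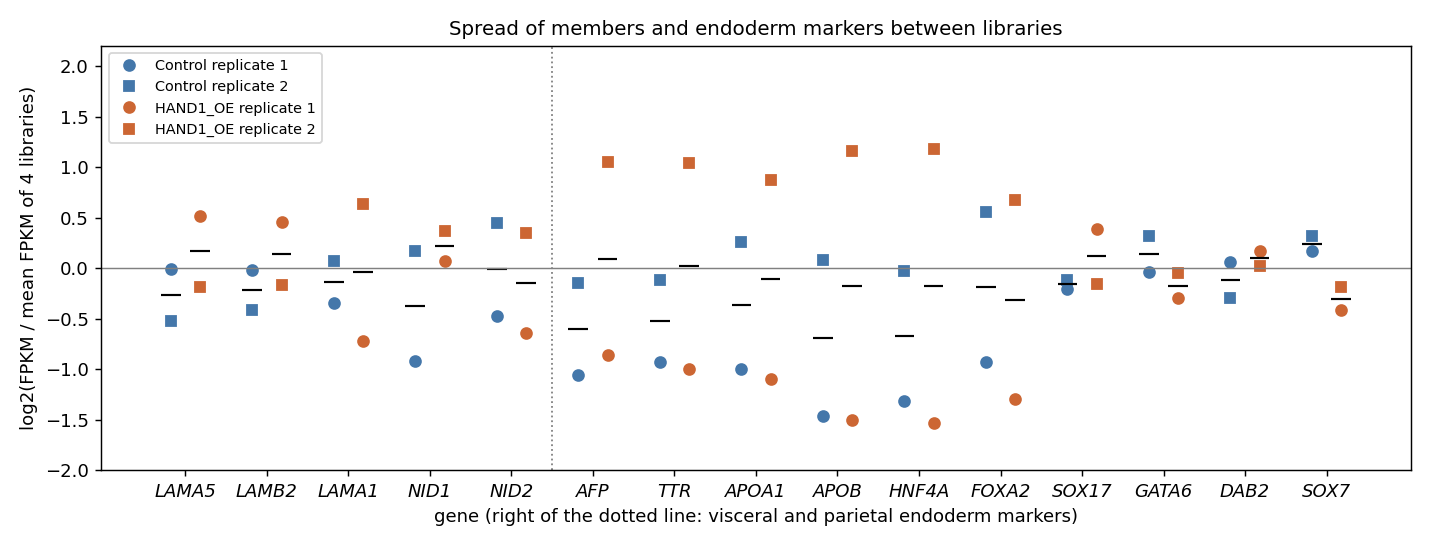
Log2 of FPKM over the mean FPKM of the 4 libraries, for 5 members and the 10 endoderm markers, with black lines at group means of the plotted values. AFP, TTR, APOA1, APOB, HNF4A and FOXA2 are highest in HAND1_OE replicate 2, as are LAMA1 and NID1, whereas LAMA5, LAMB2, SOX17 and DAB2 are highest in HAND1_OE replicate 1 and NID2, GATA6 and SOX7 in Control replicate 2.

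Other cell type markers moved between the groups along with LAMA4. For scale, 2.11% of all genes tested were called lower and 2.04% higher, and 2551 of the 14622 had an unadjusted p under 0.05. Of 8 erythroid markers 7 were called lower, and their summed level went from 412 to 663 FPKM in Control to 30.0 to 35.0 FPKM in HAND1_OE. Of 7 tested pan-hematopoietic markers 5 were called lower, from 107 to 124 FPKM down to 21.6 to 25.6 FPKM. PTPRC was not tested. It was listed at 0 in replicate 2 of both groups, and replicate 1 had 0.021 FPKM in Control and 0.023 FPKM in HAND1_OE. Of 6 tested fibroblast and stroma markers 2 were called higher, LUM and POSTN, with summed levels of 344 to 424 FPKM in Control and 475 to 529 FPKM in HAND1_OE. The collagen genes of this list were not called: COL1A2 had 154 and 141 FPKM in Control, against 68.6 and 100.9 FPKM in HAND1_OE, COL1A1 was also lower in both HAND1_OE libraries, and COL3A1 was higher in both. Of 7 tested smooth muscle and pericyte markers 1 was called higher, PDGFRB, with summed levels of 322 to 339 FPKM and 327 to 356 FPKM, and MYH11 was listed at 0 in Control replicate 2. All libraries are of cells labelled CD31+, and the share of other cells in them was not measured here. The part of these cell types in the rise of LAMA4 was not tested. Of 8 epithelial markers 0 were called in limma and 0 had an unadjusted p under 0.05, and of 5 tested pluripotency markers 0 were called and 2 had an unadjusted p under 0.05. The pluripotency factor SOX2 was listed at 0 in both HAND1_OE libraries, against 0.020 and 0.062 FPKM in Control. PRDM14 was listed at 0 in Control replicate 1. Both genes were under 1 FPKM in every library and were not tested. LUM, POSTN, PDGFRB and the collagen genes were named after their values were seen.

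The further genes of the basement membrane were taken as lists of matrix, receptor and glycosylation genes. Among the other laminin chain genes LAMC3 was tested, with a log2 fold change of 0.92 (adjusted p = 0.121). LAMB3 and LAMB4 stayed under 1 FPKM in all libraries. Of the 8 tested collagens and proteoglycans 1 was called higher and 0 lower, with a median of 0.57. COL18A1, whose protein is cut to give endostatin, rose from 153 and 195 FPKM to 1012 and 835 FPKM (log2 fold change 2.41, adjusted p = 0.00731).

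The genes of the main type IV collagen trimer, the network to which nidogens bind, stood higher in both HAND1_OE libraries but did not pass. Of all genes tested, 16.2% stood higher in both. COL4A1 had 112 and 177 FPKM in Control, against 191 and 303 FPKM in HAND1_OE (log2 fold change 0.77, adjusted p = 0.289), and COL4A2 had 165 and 219 FPKM, against 285 and 368 FPKM (0.77, adjusted p = 0.149). HSPG2, which encodes perlecan, had a log2 fold change of -0.45 (adjusted p = 0.504) and AGRN, which encodes the dystroglycan ligand agrin, of -0.49 (adjusted p = 0.154). These 4 genes are named outside the rule for named genes, after their values were seen.

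Of 11 tested other basement membrane proteins 1 was called higher and 1 lower. SPARC, a collagen binding matricellular protein, rose from 505 and 594 FPKM to 1450.2 and 1387 FPKM (log2 fold change 1.37, adjusted p = 0.0220). TINAGL1, a secreted matricellular protein, fell from 4.30 and 4.61 FPKM to 1.12 and 1.61 FPKM (-1.22, adjusted p = 0.0386). SPARC lost its call when Control replicate 1 (adjusted p = 0.0549), HAND1_OE replicate 1 (0.0823) or HAND1_OE replicate 2 (0.0730) was left out. TINAGL1 lost it without Control replicate 1 (0.108), Control replicate 2 (0.141) or HAND1_OE replicate 1 (0.0908), and with the length and GC trend removed (0.0788).

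Receptors of laminin changed in both directions, with 2 of the 8 tested called higher and 2 lower and a median of 0.19. ITGA1 and ITGA2, alpha subunits of integrins that bind collagens and laminins, were higher in HAND1_OE. ITGA1 went from 4.37 and 4.97 FPKM to 15.0 and 20.2 FPKM (log2 fold change 1.70, adjusted p = 0.0159) and ITGA2 from 3.05 and 4.68 FPKM to 9.93 and 12.6 FPKM (1.35, adjusted p = 0.0419). BCAM, the Lutheran glycoprotein that binds the LAMA5 chain and is also carried by red cells, fell from 85.0 and 73.0 FPKM to 34.9 and 36.0 FPKM (-1.13, adjusted p = 0.0220). ITGA7, the laminin receptor subunit of muscle, fell from 11.04 and 10.6 FPKM to 4.27 and 4.73 FPKM (-1.10, adjusted p = 0.0280), and is named outside the rule. ITGA6, ITGA3, ITGB1 and DAG1, the common laminin receptors of many tissues, were not called, with log2 fold changes of 0.16, 0.22, 0.33 and -0.13 (adjusted p between 0.547 and 0.876), and are named outside the rule as well.

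The call of COL18A1 held without each library in turn, and so did that of ITGA1, though only just without Control replicate 1. ITGA2 lost its call without Control replicate 1 (adjusted p = 0.120), Control replicate 2 (0.0504) or HAND1_OE replicate 2 (0.0784), and ITGA7 without Control replicate 1 (0.114), Control replicate 2 (0.108) or HAND1_OE replicate 1 (0.0644). BCAM lost it without Control replicate 1 (0.0969) or Control replicate 2 (0.0623). Of 11 tested enzymes that build the laminin binding sugar of dystroglycan 0 were called in limma and 0 had an unadjusted p under 0.05, with a median of 0.14 and log2 fold changes from -0.16 to 0.29. All 5 lists together held 39 tested genes, of which 4 were called higher and 3 lower, and their median log2 fold change was 0.15. Over all genes tested 4.16% were called, 2551 of 14622 had an unadjusted p under 0.05, and the median was -0.078.

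**Figure D5:**
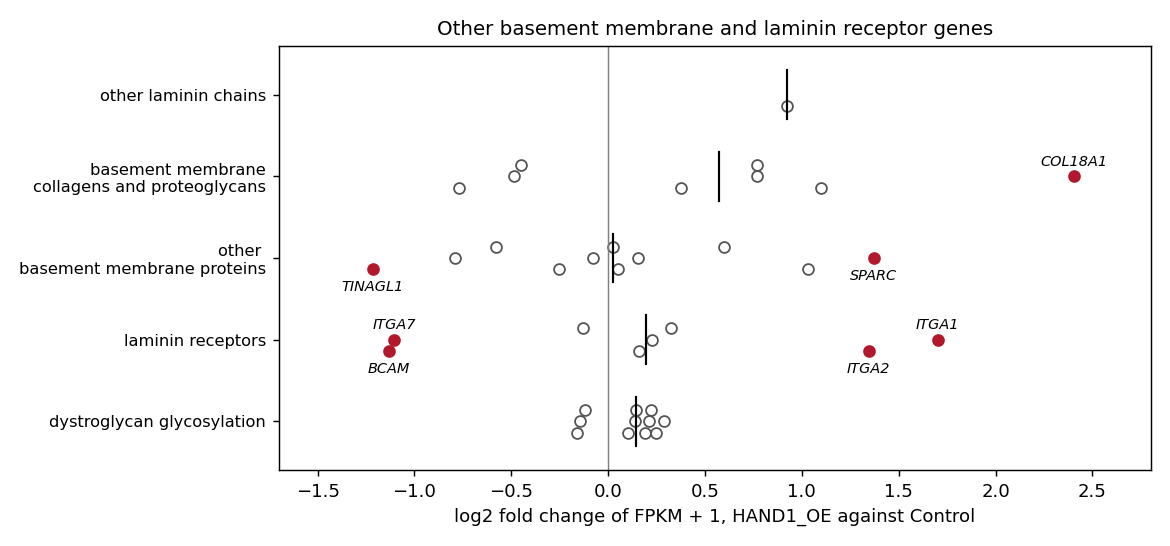
Log2 fold changes of FPKM + 1 between HAND1_OE and Control for the 39 tested genes of 5 lists, with filled red points for genes with a limma adjusted p under 0.05 and black ticks at the list medians. COL18A1 (2.41) lies farthest to the right, the laminin receptors have called genes on both sides of 0, and the dystroglycan glycosylation genes stay between -0.16 and 0.29.

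Several members share their place in the genome with genes on the opposite strand. ADRM1 overlaps LAMA5 (46.3 to 69.1 FPKM over the 4 libraries), DLD overlaps LAMB1 (53.2 to 74.2 FPKM) and RTRAF overlaps NID2 (71.8 to 97.6 FPKM). The kit does not mark strand, so reads within exons shared by such a pair cannot be told apart. Genes annotated within LAMA4 were at 0.281 FPKM or less in every library.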

How the data were processed

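Total RNA of CD31+ cells was sequenced with an Illumina TruSeq kit in 2 Control and 2 HAND1_OE libraries, grouped by their titles. The authors deposited FPKM values per gene and library, a unit taken from the study's plots because the table names none; the submitters' processing notes name BWA, Bowtie and RSEM and the build hg19, whereas 56550 of the 57966 gene rows matched by ID to GENCODE release 29 have its GRCh38 coordinates. Versions are not given in the sources used here. Starts are counted from 1. Counts are not held, so no counting interval is given. From 58365 rows, 45 Y pseudoautosomal copies and 91 repeats of a gene ID were left out, and the repeat with the highest mean was kept.

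A gene was tested if 2 or more libraries reached 1 FPKM. Values were compared as log2(FPKM + 1), which understates changes of low genes, in limma 3.58.1 (R 4.3.3) with a trend, two-sided, adjusted by Benjamini-Hochberg across the 14622 genes that passed. Every adjusted p is from limma. Calls are at an adjusted p under 0.05. Chain ratios were tested by exact permutation over libraries. The code was tested on simulated data. Members and lists were chosen with earlier results of these data known. Named genes were the 10 members, HAND1 and up to 3 called genes per list with the largest changes. RXYLT1 was found by gene ID. Values of some listed genes are not reported here. Alternatives were a pseudocount of 0.1, other filters, quantile and median-ratio scaling, no trend, a replicate block, removal of trends on transcript length and GC content, each library left out, and a fold change of at least 2.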

Additional observations from a re-analysis of the deposited data

How the results depend on the processing

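The count of members called was 1, and it was 0 with every gene above 0 tested, 0 with the length and GC trend removed (LAMA4 log2 fold change 1.24, limma adjusted p = 0.0564), and 0 to 1 with a library left out. The replicate numbers are shared by the groups but the labels do not say that they pair libraries. The deviations of same-numbered libraries correlated at 0.383 across 14622 genes. With the replicate block 1 member was called (LAMA4, adjusted p = 0.0142), and with the length and GC trend removed as well 2 were, LAMA4 and LAMA5 (log2 fold change 0.52, adjusted p = 0.0238). The 7 calls of the other lists became 0 with no filter, 14 with the replicate block, and 15 with the block and the length and GC trend removed. They fell when either Control library or HAND1_OE replicate 1 was left out. Calls over all genes tested moved the same way. Those were 299 higher and 309 lower in the main fit, 597 and 712 with the block, and 917 and 734 with the block and the trend removed. HAND1 kept its log2 fold change of 5.20 with no filter, but its adjusted p was 0.153. In that setting 0 genes of 29860 were called and 3810 had an unadjusted p under 0.05. With a library left out the log2 fold change ranged from -0.49 to 0.69 for LAMA1 and from -0.60 to 0.34 for NID2. The difference in share of summed alpha chains ranged from -2.24 to 1.61 percentage points for LAMA1, from -0.051 to 0.18 for LAMA2 and from -5.18 to 0.24 for LAMA5. The difference in log2 ratio ranged from -0.54 to 0.40 for LAMB1 to LAMB2, from -0.43 to 0.39 for beta chains to LAMC1 and from -0.37 to 0.56 for alpha chains to LAMC1. It kept its sign for LAMA4 to LAMA5 (0.75 to 1.18) and NID1 to NID2 (0.39 to 1.07). The share of LAMA1 differed by 0.0026 percentage points after quantile normalization, and that of LAMA2 by -0.074 with 1 FPKM added. The cause of these changes was not tested. There are 2 libraries a group, and where 1 was left out the lone library was assumed to vary like the other group. Alternatives planned for a count table were not run, since the table holds FPKM.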
